A study of Mus musculus with 12 samples.

Results

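VEGF and Tie signaling genes were followed in the mouse spleen as 10 genes chosen by symbol, out of 18221 genes measured. They comprised 3 VEGF ligands (Vegfa, Vegfb and Vegfc) and 7 receptors and co-receptors: the VEGF receptors Flt1, Kdr and Flt4, the neuropilins Nrp1 and Nrp2, and the Tie receptors Tek and Tie1. Spleens of 12 male mice of the outbred ICR stock were sequenced, with 3 mice in each of 4 groups. Con-sa mice received saline and no busulfan. B-sa mice received 1 injection of busulfan, an alkylating drug that depletes blood-forming and germ cells, at 40 mg/kg, followed by saline. B+Con-FMT mice received the same busulfan and then fecal microbiota transplantation (FMT) from water-fed donors. B+A10-FMT mice received busulfan and FMT from donors given alginate oligosaccharides (AOS) at 10 mg/kg. All recipients were 3 weeks old at the start and 8 weeks old at the end, with 2 weeks of daily dosing, and each FMT came from pooled gut content of the donors, so that recipients within a group shared a donor pool. The comparisons ask what busulfan did to the spleen and whether either FMT altered it.

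VEGF-A binds Flt1 (VEGFR1) and Kdr (VEGFR2) on endothelial cells. Kdr carries most of the signal for endothelial growth and permeability, whereas Flt1 binds VEGF-A tightly and signals weakly. VEGF-B binds Flt1, and VEGF-C binds Flt4 (VEGFR3), which is best known from lymphatic vessels and is also present on sinusoidal endothelium. Nrp1 and Nrp2 are co-receptors that bind forms of VEGF as well as class 3 semaphorins. Tek (TIE2) is the receptor of the angiopoietins, and Tie1 is its partner. The red pulp of the spleen is built around venous sinuses that are lined by endothelium.

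Promoter sequence is shown for those of the 10 genes that passed the test below in at least 1 comparison and whose promoter window lay outside the annotated gene. All 10 genes matched the RefSeq promoter table (GRCm38.p6, the assembly that mm10 denotes). Of the 7 genes that passed the test, 4 had a window outside the gene. The 250 bases before the transcription start are given 5′ to 3′ on the strand of the gene, and capitals mark 4 short motifs on either strand: GGAAG or its complement CTTCC at the core of ETS factor sites, GGGCGG or CCGCCC for the GC box of SP1, ACGTG or CACGT for the hypoxia response core, and TATAAA or TTTATA for the TATA box. The windows were chr17:46032378-46032627 on the minus strand for Vegfa, chr11:49609429-49609678 on the plus strand for Flt4, chr1:62703067-62703316 on the plus strand for Nrp2 and chr4:118489850-118490099 on the minus strand for Tie1.
Vegfa: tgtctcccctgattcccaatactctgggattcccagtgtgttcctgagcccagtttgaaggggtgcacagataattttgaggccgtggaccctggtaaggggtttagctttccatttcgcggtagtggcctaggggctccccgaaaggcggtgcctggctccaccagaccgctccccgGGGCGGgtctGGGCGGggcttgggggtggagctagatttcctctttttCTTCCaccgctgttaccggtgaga
Flt4: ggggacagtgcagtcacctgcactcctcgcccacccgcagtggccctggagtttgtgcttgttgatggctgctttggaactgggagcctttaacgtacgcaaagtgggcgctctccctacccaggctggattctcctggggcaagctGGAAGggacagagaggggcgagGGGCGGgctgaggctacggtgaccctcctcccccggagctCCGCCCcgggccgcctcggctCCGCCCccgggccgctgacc
Nrp2: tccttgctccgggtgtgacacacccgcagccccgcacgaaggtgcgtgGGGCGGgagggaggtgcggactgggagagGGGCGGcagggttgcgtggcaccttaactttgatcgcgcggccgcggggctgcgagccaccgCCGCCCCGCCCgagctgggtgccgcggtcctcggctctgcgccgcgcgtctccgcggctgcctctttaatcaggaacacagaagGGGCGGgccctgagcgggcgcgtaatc
Tie1: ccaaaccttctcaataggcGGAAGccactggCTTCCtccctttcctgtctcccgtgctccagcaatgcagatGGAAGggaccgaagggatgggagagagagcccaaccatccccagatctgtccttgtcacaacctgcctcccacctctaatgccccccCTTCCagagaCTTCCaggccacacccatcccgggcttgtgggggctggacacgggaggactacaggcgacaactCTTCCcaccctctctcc
The Tie1 window held the ETS core 6 times and no GC box. The Nrp2 window held 5 GC boxes, of which a neighbouring pair shares 1 base, and no ETS core. The Flt4 window held 1 ETS core and 3 GC boxes, and the Vegfa window held 1 ETS core and 2 GC boxes. Over all 32851 windows of this length in the table, the ETS core was in 64.1%, the GC box in 32.7%, the hypoxia response core in 16.6% and the TATA box in 12.4%. Over the 12868 windows of genes that entered the test described next, as all 10 genes did, the shares were 68.8%, 55.7%, 21.2% and 6.92%. Over the 11 windows of the 10 genes, these motifs were in 7, 9, 1 (a second start of Vegfa) and 1 (Flt1). Such matches describe letters and say nothing of binding.

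Spleens given A10-FMT held more of most receptors than those given Con-FMT. A gene was called where limma, run on log2(RPKM + 1), gave an adjusted p under 0.05 among the 12671 genes with an RPKM (read number scaled to transcript length and library size) of at least 1 in at least 3 samples. All 10 genes met that filter. Between B+A10-FMT and B+Con-FMT, 7 of the 10 were called, all higher with A10-FMT (Vegfa, Flt1, Kdr, Flt4, Nrp2, Tek and Tie1), where 10.4% of all genes tested were called and 7.58% were called higher. With transcripts of identical values counted once, 6 were called, without Vegfa. Against B-sa, B+A10-FMT had 3 called, all higher (Vegfa, Kdr and Nrp2), where 5.27% of all genes were called and 4% were called higher. B-sa against Con-sa had 2 called, both lower (Flt4 and Tie1), where 14.5% of all genes were called and 9.78% were called lower, so that the share of the 10 genes was near that of all genes. B+Con-FMT against Con-sa had 3 called, all lower (Kdr, Flt4 and Tek), where 8.87% of all genes were called and 6.57% were called lower. B+Con-FMT against B-sa had 0 called by limma and 0 at an unadjusted p under 0.05. Of the 12671 genes tested, 0.844% were called and 2329 were at an unadjusted p under 0.05 in that comparison. B+A10-FMT against Con-sa also had 0 called by limma, and 2 (Vegfa and Kdr) at an unadjusted p under 0.05. There, 0.41% of the 12671 genes were called and 1710 were at an unadjusted p under 0.05. These comparisons share groups, so a group that stands apart enters several of them. In whole spleen, fewer endothelial cells and less RNA per cell cannot be told apart.

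**Figure D1:**
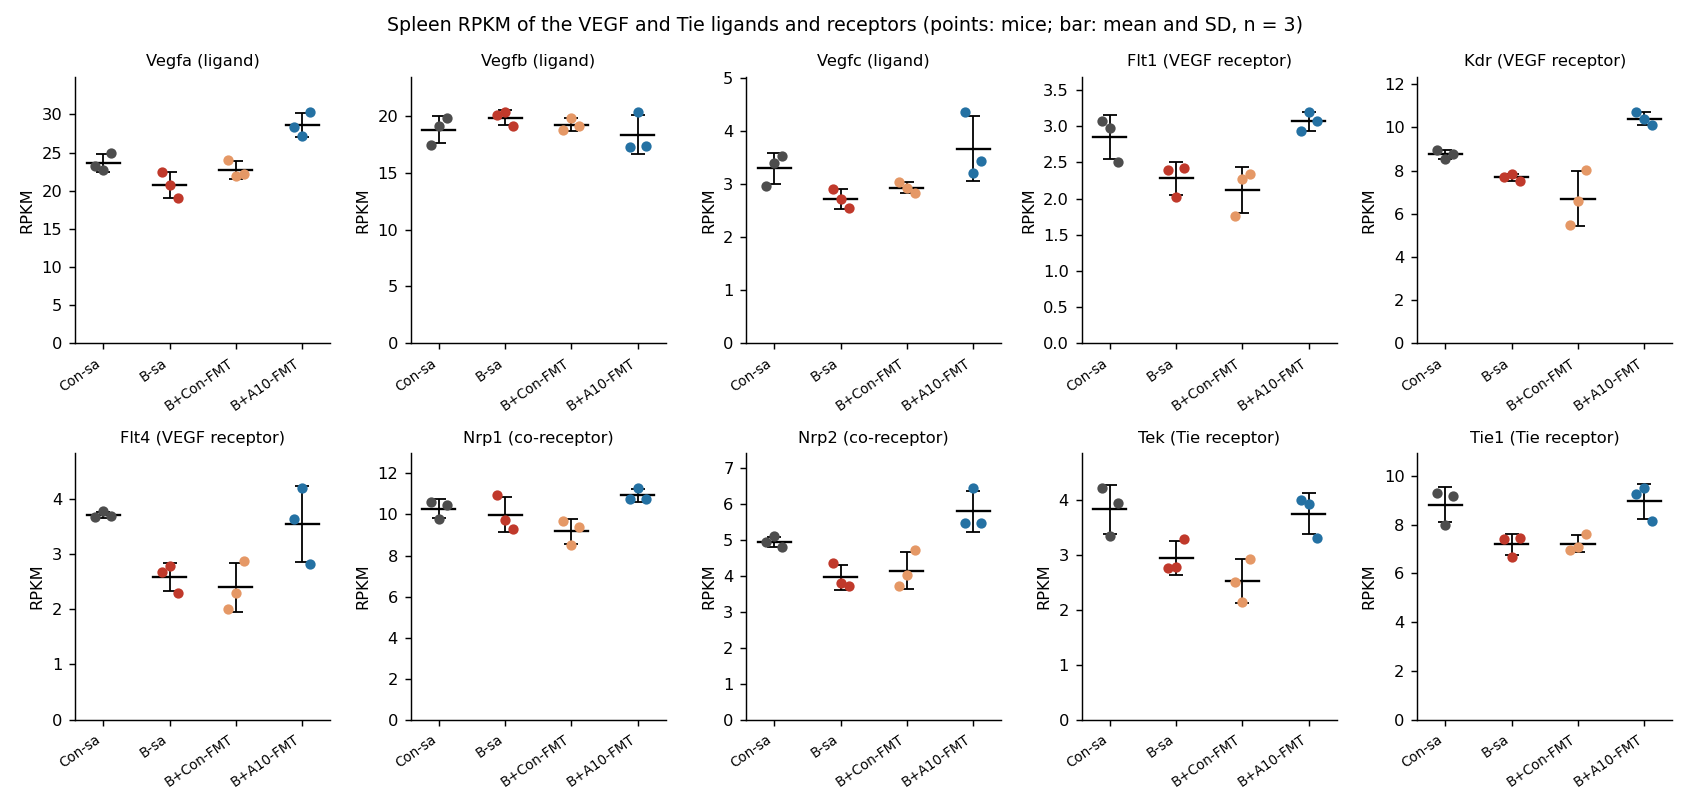
RPKM (vertical axes, starting at 0) of the 10 genes in each of the 12 mice by group (horizontal axes), with points for mice and bars for the mean and SD (n = 3). Kdr lay at 10.1 to 10.7 in B+A10-FMT and at 8.94 or below in the other mice, and Vegfb overlapped between all groups.

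The libraries held an estimated 14300000 to 15100000 reads, and globin transcripts took 23.3% to 32.4% of the summed RPKM. All 7 spleen markers (among them Tlx1, Spic and Cd79a) were measured, with summed RPKM of 880 to 1102. Genes of neighbouring tissue were also present. The 14 pancreatic acinar genes, none at 0 in all mice and none called in the 6 comparisons (lowest adjusted p = 0.142, Amy2a5), summed to 9743 to 15668 RPKM for B+Con-FMT, 538 to 11523 for B+A10-FMT, 562 to 3993 for B-sa and 1546 to 8395 for Con-sa. The 7 kidney genes summed to 84.5 to 154 RPKM for Con-sa, 13.9 to 41.0 for B-sa, 20.0 to 71.9 for B+Con-FMT and 6.72 to 8.74 for B+A10-FMT. Of the 3 kidney genes tested, relative to Con-sa 2 were lower for B-sa, 2 for B+A10-FMT and 1 for B+Con-FMT, and B+A10-FMT had 1 lower relative to B-sa and 1 relative to B+Con-FMT. With A10-FMT relative to B-sa, 2 of 5 mesothelial genes were lower, and the 5 adipocyte genes tested had a median log2 difference of -1.37 with none called (lowest adjusted p = 0.0661, Cidec). The part of these tissues in the levels of the 10 genes was not tested.

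Vegfa and Vegfb were the most abundant of the 10 genes, and their order depended on how Vegfa transcripts were counted. Per length, the mean level over the 12 mice was 23.9 RPKM for Vegfa and 19.1 RPKM for Vegfb, with Vegfa the higher in 11 of 12 mice. Of the 10 listed Vegfa transcripts, 7 shared their values with another in all 12 mice, and with such transcripts counted once Vegfa was at 16.7 RPKM and above Vegfb in 2 of 12 mice. The summed level of the 3 ligands was above that of the 7 receptors and co-receptors in 11 of 12 mice, and in 5 of 12 with such transcripts counted once. Nrp1 came next at 10.1 RPKM, above Kdr in all 12 mice. Kdr (8.39 RPKM) and Tie1 (8.05 RPKM) were close, with Kdr the higher in 8 of 12 mice. Nrp2 was at 4.70 RPKM, above Tek in 12 of 12 mice. Tek (3.27 RPKM), Vegfc (3.15 RPKM), Flt4 (3.06 RPKM) and Flt1 (2.58 RPKM) overlapped in their ranges, and Tek was above Vegfc, and Vegfc above Flt4, in 6 of 12 mice each. A level rests on an estimated 88 to 150 reads in a mouse for Vegfc, 129 to 250 for Tek, 184 to 384 for Flt4 and 473 to 916 for Kdr.

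Vegfa, the main growth factor for endothelium, had its highest level with A10-FMT. It was at 23.2, 22.7 and 25.0 RPKM in the Con-sa mice and at 22.5, 20.8 and 19.0 RPKM in the B-sa mice. It was at 24.0, 21.9 and 22.2 RPKM with Con-FMT and at 28.4, 27.1 and 30.3 RPKM with A10-FMT. On these sums, all B+A10-FMT mice were above the other 9 mice, and all B-sa mice were below the Con-sa mice. Vegfa was higher with A10-FMT relative to B-sa (log2 0.45, SE 0.07, adjusted p = 0.00609) and relative to B+Con-FMT (log2 0.32, SE 0.07, adjusted p = 0.0156). Its other log2 differences did not pass the test, with 0.27 for B+A10-FMT against Con-sa (adjusted p = 0.134), -0.18 for B-sa against Con-sa (adjusted p = 0.0918), 0.13 for B+Con-FMT against B-sa (adjusted p = 0.357) and -0.05 for B+Con-FMT against Con-sa (adjusted p = 0.637). With identical transcripts counted once, Vegfa was at 15.5, 14.8 and 17.4 RPKM for Con-sa, 16.1, 14.1 and 13.2 for B-sa, 18.2, 15.7 and 16.2 for B+Con-FMT and 20.2, 17.6 and 21.1 for B+A10-FMT. B+A10-FMT then overlapped with B+Con-FMT, and B-sa with Con-sa, while B+A10-FMT lay above the mice of Con-sa and B-sa. On this count Vegfa remained called against B-sa (log2 0.42, adjusted p = 0.0250) but not against B+Con-FMT (log2 0.22, adjusted p = 0.131). The most abundant transcript alone, with 21.1% of the summed level, was not called in either, at 0.13 (adjusted p = 0.7998) and -0.05 (adjusted p = 0.922).

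Vegfb, the ligand of Flt1, did not separate the groups. Its level was 17.4, 19.1 and 19.8 RPKM for the Con-sa mice, 20.1, 20.4 and 19.1 RPKM for B-sa, 18.8, 19.8 and 19.1 RPKM for B+Con-FMT and 17.3, 20.3 and 17.4 RPKM for B+A10-FMT. The mice overlapped in all 6 comparisons, with adjusted p from 0.324 to 0.857. The ratio of its highest to its lowest group mean was 1.08, compared with 1.38 for Vegfa. Vegfc is the ligand of Flt4. Its level was 2.97, 3.39 and 3.53 RPKM for the Con-sa mice, 2.91, 2.72 and 2.54 RPKM for B-sa, 3.04, 2.92 and 2.83 RPKM for B+Con-FMT and 4.36, 3.20 and 3.44 RPKM for B+A10-FMT. Every B-sa and B+Con-FMT mouse was below every B+A10-FMT mouse for Vegfc, but no comparison was called, and the lowest adjusted p was 0.0700, for B+A10-FMT against B-sa.

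Kdr, the main signaling receptor of VEGF-A, had the largest ratio between group means of the 10 genes. It was at 8.94, 8.54 and 8.76 RPKM in the Con-sa mice and at 7.69, 7.85 and 7.54 RPKM in the B-sa mice. It was at 5.46, 6.61 and 8.01 RPKM with Con-FMT and at 10.7, 10.4 and 10.1 RPKM with A10-FMT. All B+A10-FMT mice were above the other 9, and the B+Con-FMT mice were the most spread, from below to above all B-sa mice. By mean RPKM, Kdr was 55.5% higher with A10-FMT than with Con-FMT (log2 0.58, SE 0.09, adjusted p = 0.00486) and 35.3% higher relative to B-sa (log2 0.39, SE 0.09, adjusted p = 0.0349). It was lower with Con-FMT relative to Con-sa (log2 -0.35, SE 0.09, adjusted p = 0.0380). The remaining log2 differences did not pass the test, with 0.23 for B+A10-FMT against Con-sa (adjusted p = 0.325), -0.16 for B-sa against Con-sa (adjusted p = 0.251) and -0.19 for B+Con-FMT against B-sa (adjusted p = 0.311). Kdr has 1 listed transcript.

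Flt1 binds both VEGF-A and VEGF-B. Its level was 3.07, 2.98 and 2.50 RPKM for the Con-sa mice, 2.39, 2.02 and 2.43 RPKM for B-sa, 1.76, 2.27 and 2.34 RPKM for B+Con-FMT and 2.94, 3.20 and 3.07 RPKM for B+A10-FMT. The B+A10-FMT mice were above all mice of B-sa and B+Con-FMT and overlapped with Con-sa. Flt1 was higher with A10-FMT than with Con-FMT (log2 0.39, SE 0.10, adjusted p = 0.0285). Flt4, the receptor of VEGF-C, was lowest in B-sa and B+Con-FMT. Its level was 3.66, 3.77 and 3.68 RPKM for the Con-sa mice, 2.68, 2.78 and 2.29 RPKM for B-sa, 2.01, 2.30 and 2.88 RPKM for B+Con-FMT and 3.63, 4.19 and 2.82 RPKM for B+A10-FMT. All 6 mice of B-sa and B+Con-FMT were below the Con-sa mice, and B+A10-FMT replicate 3 was below B+Con-FMT replicate 3. Flt4 was lower relative to Con-sa with saline (log2 -0.39, SE 0.12, adjusted p = 0.0430) and with Con-FMT (log2 -0.48, SE 0.12, adjusted p = 0.0291), and higher with A10-FMT than with Con-FMT (log2 0.42, SE 0.12, adjusted p = 0.0428). Since Flt4 is low, the log2(RPKM + 1) scale understates its ratios, and the mean RPKM differed by -30.2%, -35.3% and 48.0%.

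Nrp2, a co-receptor for Flt4 and Kdr, was highest with A10-FMT. Its level was 4.93, 5.09 and 4.81 RPKM for the Con-sa mice, 4.34, 3.80 and 3.71 RPKM for B-sa, 3.71, 4.01 and 4.70 RPKM for B+Con-FMT and 5.47, 6.43 and 5.45 RPKM for B+A10-FMT. All B+A10-FMT mice were above the other 9, and the Con-sa mice were above all mice of B-sa and B+Con-FMT. Nrp2 was higher with A10-FMT relative to B-sa (log2 0.45, SE 0.09, adjusted p = 0.0171) and relative to B+Con-FMT (log2 0.40, SE 0.09, adjusted p = 0.0180). Its most abundant transcript alone, with 42.7% of the summed level, averaged 2.07 RPKM for B-sa, 2.0 RPKM for B+Con-FMT and 2.07 RPKM for B+A10-FMT, and was not called in either comparison (log2 0.01, adjusted p = 0.978, and log2 0.03, adjusted p = 0.949). Nrp1 is the co-receptor that immune cells also carry. Its level was 10.6, 9.78 and 10.47 RPKM for the Con-sa mice, 10.9, 9.73 and 9.30 RPKM for B-sa, 9.68, 8.50 and 9.38 RPKM for B+Con-FMT and 10.7, 11.3 and 10.8 RPKM for B+A10-FMT. It was called in no comparison. Its lowest adjusted p was 0.0550, for B+A10-FMT against B+Con-FMT, where the mice did not overlap.

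Tek, the angiopoietin receptor, was lowest with Con-FMT. Its level was 4.22, 3.34 and 3.95 RPKM for the Con-sa mice, 2.76, 2.78 and 3.30 RPKM for B-sa, 2.51, 2.14 and 2.93 RPKM for B+Con-FMT and 4.0, 3.94 and 3.32 RPKM for B+A10-FMT. The B+Con-FMT mice were below all Con-sa and B+A10-FMT mice. Tek was higher with A10-FMT than with Con-FMT (log2 0.43, SE 0.11, adjusted p = 0.0261) and lower with Con-FMT relative to Con-sa (log2 -0.46, SE 0.11, adjusted p = 0.0229). Its most abundant transcript alone, with 37.0% of the summed level, was called in neither (log2 0.34, adjusted p = 0.538, and log2 -0.25, adjusted p = 0.671). Tie1 is its partner. Its level was 9.30, 7.99 and 9.19 RPKM for the Con-sa mice, 7.42, 6.69 and 7.46 RPKM for B-sa, 6.97, 7.09 and 7.63 RPKM for B+Con-FMT and 9.26, 9.5 and 8.15 RPKM for B+A10-FMT. The 6 mice of B-sa and B+Con-FMT lay below the other 6. Tie1 was lower with busulfan and saline relative to Con-sa (log2 -0.26, SE 0.08, adjusted p = 0.0420) and higher with A10-FMT than with Con-FMT (log2 0.27, SE 0.08, adjusted p = 0.0426). With trends along transcript length and GC content removed, the difference between B-sa and Con-sa was log2 -0.14 for Tie1 (adjusted p = 0.218) and log2 -0.23 for Flt4 (adjusted p = 0.212), and neither was called. In that setting Flt1, Flt4, Nrp2, Tek and Tie1 were also not called between B+A10-FMT and B+Con-FMT.

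**Figure D2:**
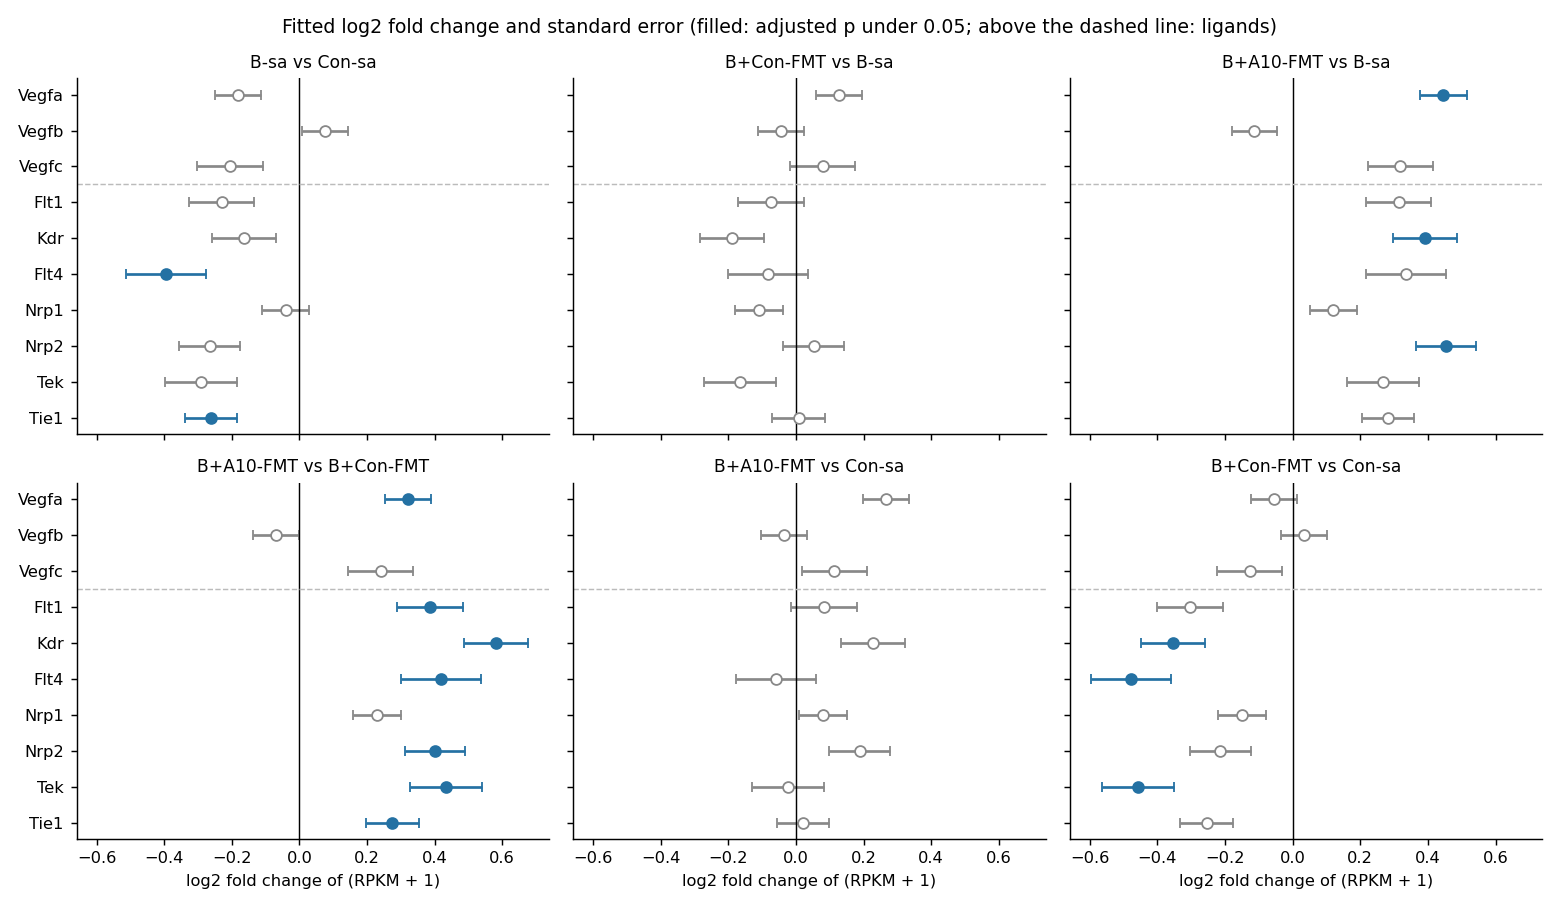
Fitted log2 fold change of RPKM + 1 (horizontal axes) with its standard error for the 10 genes (vertical axes) in the 6 comparisons, with filled points for genes called at an adjusted p under 0.05. For B+A10-FMT against B+Con-FMT, 7 points are filled, and only Vegfb has an estimate below 0.

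More genes separated without overlap than were called. Of the 10 genes, 8 were lower in every B-sa than in every Con-sa mouse, against 22.8% of all genes tested. With A10-FMT, 8 were higher without overlap relative to B-sa (19.7% of all genes), and 8 relative to B+Con-FMT (23.8% of all genes). With identical Vegfa transcripts counted once, these counts were 7 for B-sa against Con-sa, 8 relative to B-sa and 7 relative to B+Con-FMT. Relative to Con-sa, 4 were higher without overlap with A10-FMT (Vegfa, Kdr, Nrp1 and Nrp2, 11.7% of all genes) and 7 were lower with Con-FMT (23.6% of all genes). The median log2 difference of the 10 genes was 0.35 for B+A10-FMT against B+Con-FMT and 0.32 against B-sa, where that of all genes tested was 0.05 in both. It was -0.22 for B-sa against Con-sa, where that of all genes was -0.04.

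The counts of calls moved with single mice. The 7 calls between B+A10-FMT and B+Con-FMT became 4 without B+A10-FMT replicate 1, 2 without B+A10-FMT replicate 2, 2 without B+Con-FMT replicate 1 and 1 without B+Con-FMT replicate 2, and Kdr was called each time. Against B-sa, the 3 calls of B+A10-FMT became 1, Vegfa, without B+A10-FMT replicate 2 or B-sa replicate 2, and Kdr was not called there without any 1 of the B+A10-FMT or B-sa mice or without Con-sa replicate 1. The 2 calls of B-sa against Con-sa became 0 without B-sa replicate 2 or 3, Con-sa replicate 1 or 3, B+Con-FMT replicate 2 or B+A10-FMT replicate 1, and 1, Tie1, without Con-sa replicate 2. Without B-sa replicate 1 they became 3, Vegfa, Nrp2 and Tie1, and Flt4 was not called. The 3 calls of B+Con-FMT against Con-sa became 0 without B+Con-FMT replicate 1 or 2 or Con-sa replicate 1 or 3, and 1, Tek, without Con-sa replicate 2, and Kdr was also not called without B+A10-FMT replicate 2.

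Ligands were then set against receptors within each mouse, as the mean log2(RPKM + 1) of the 7 receptors and co-receptors minus that of the 3 ligands. This difference of levels was -0.82, -0.99 and -1.03 for Con-sa and -1.10, -1.13 and -1.01 for B-sa. It was -1.34, -1.25 and -1.05 with Con-FMT and -1.02, -0.89 and -1.06 with A10-FMT. B+A10-FMT overlapped with each other group, whereas B+Con-FMT lay below Con-sa without overlap. With identical Vegfa transcripts counted once, the range of B+A10-FMT was -0.89 to -0.69 and that of B+Con-FMT -1.21 to -0.91, which did not overlap. The group means differed by -0.13 for B-sa against Con-sa and by 0.23 for B+A10-FMT against B+Con-FMT. Taken apart, the receptor mean was 2.69 to 2.77 for Con-sa, 2.46 to 2.53 for B-sa, 2.31 to 2.55 for B+Con-FMT and 2.71 to 2.88 for B+A10-FMT, so that the 6 mice of the middle groups lay below the other 6. The ligand mean was 3.60 to 3.75, 3.49 to 3.64, 3.60 to 3.65 and 3.77 to 3.83 for these groups, and B+A10-FMT stood above the rest. That separation was lost with identical Vegfa transcripts counted once, with 3.57 to 3.67 for B+A10-FMT and 3.41 to 3.59 for Con-sa. No test was made of these scores.

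**Figure D3:**
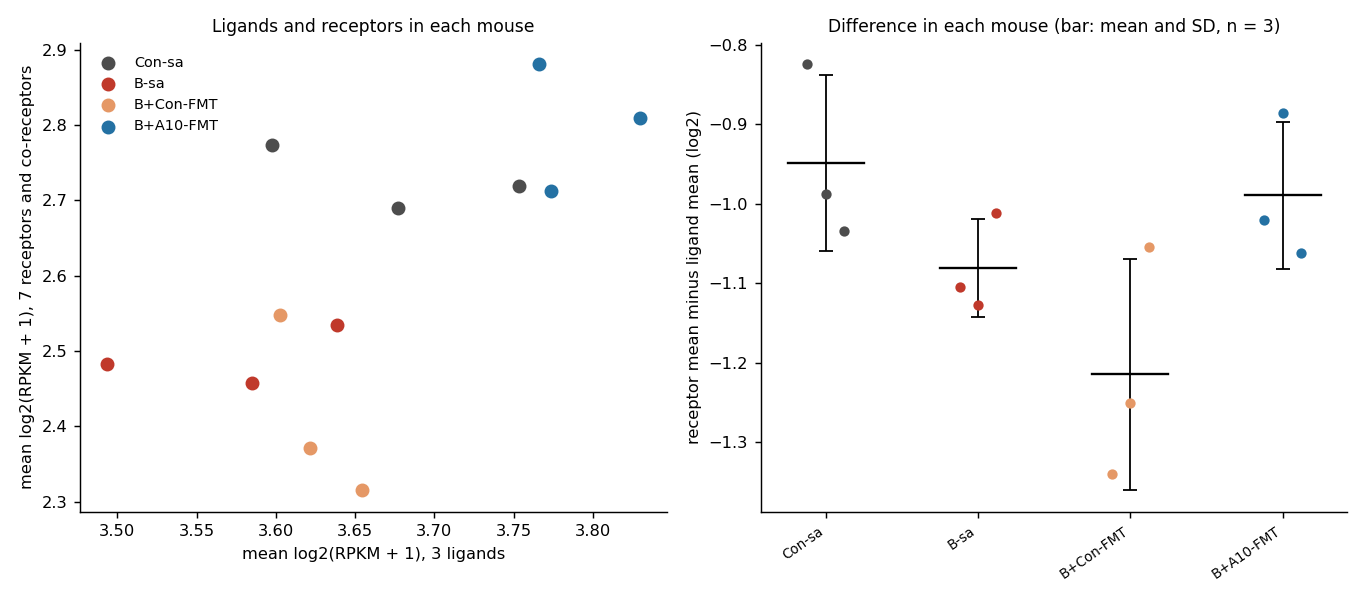
Left, mean log2(RPKM + 1) of the 3 ligands (horizontal axis) and of the 7 receptors and co-receptors (vertical axis) in each mouse, colored by group, and right, the receptor mean minus the ligand mean by group, with the mean and SD (n = 3). B+A10-FMT lies highest on the ligand axis, at 3.77 to 3.83 with all Vegfa transcripts summed, and overlaps with each other group on the right.

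Since endothelium makes most of these receptors, their levels were set beside 21 other endothelial markers (Pecam1, Cdh5 and others). The summed RPKM of that list was 311 to 324 for Con-sa, 261 to 281 for B-sa, 239 to 281 for B+Con-FMT and 317 to 333 for B+A10-FMT, and none of its genes was at 0 in all mice. Of the 21 markers, 5 were lower with B-sa and 9 with B+Con-FMT relative to Con-sa, and B+A10-FMT had 6 higher relative to B-sa and 9 relative to B+Con-FMT, with 0 called in the opposite direction in all 4. Of all genes tested, 9.78%, 6.57%, 4% and 7.58% were called in these directions, in the same order. The median log2 difference of the list for B+A10-FMT against B+Con-FMT was 0.20, and that of the 7 receptors and co-receptors was 0.40. The 6 genes of sinus endothelium counted below had a median of 0.39 there. Against B-sa their median was 0.31, as was that of the receptors and co-receptors. The part of endothelial content in the levels of the 10 genes was not tested beyond the differences that follow.

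Relative to the mean log2(RPKM + 1) of these markers in the same mouse, Kdr was at 0.20, 0.14 and 0.15 with A10-FMT and at -0.36, -0.13 and -0.06 with Con-FMT. Con-sa mice were at 0.00, -0.05 and -0.06, and B-sa mice at -0.09, 0.01 and -0.04. All B+A10-FMT mice were thus above the other 9. The same held for Nrp2, at -0.66, -0.48 and -0.63 with A10-FMT and at -0.70 or below in the other mice. Flt4 on this scale was lower for B-sa (-1.42 to -1.22) than for Con-sa (-1.12 to -1.05), whereas Nrp1 was higher for B-sa (0.23 to 0.37) than for Con-sa (0.12 to 0.22). Tek was lower for B+Con-FMT (-1.40 to -1.24) than for Con-sa (-1.19 to -0.93) and B+A10-FMT (-1.21 to -1.03). Flt1, Tie1 and Vegfc of B+A10-FMT overlapped with each other group. Vegfa of B+A10-FMT (1.45 to 1.65) overlapped with B+Con-FMT (1.31 to 1.59) and lay above Con-sa (1.26 to 1.35) and B-sa (1.19 to 1.35), and with identical transcripts counted once it overlapped with all 3. Vegfb, whose own level overlapped between all groups, was 0.89 to 1.03 above the markers for Con-sa, 1.19 to 1.28 for B-sa, 1.10 to 1.33 for B+Con-FMT and 0.84 to 1.04 for B+A10-FMT. An exact permutation test of 3 mice against 3 cannot give a p below 0.1, and none was made.

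**Figure D4:**
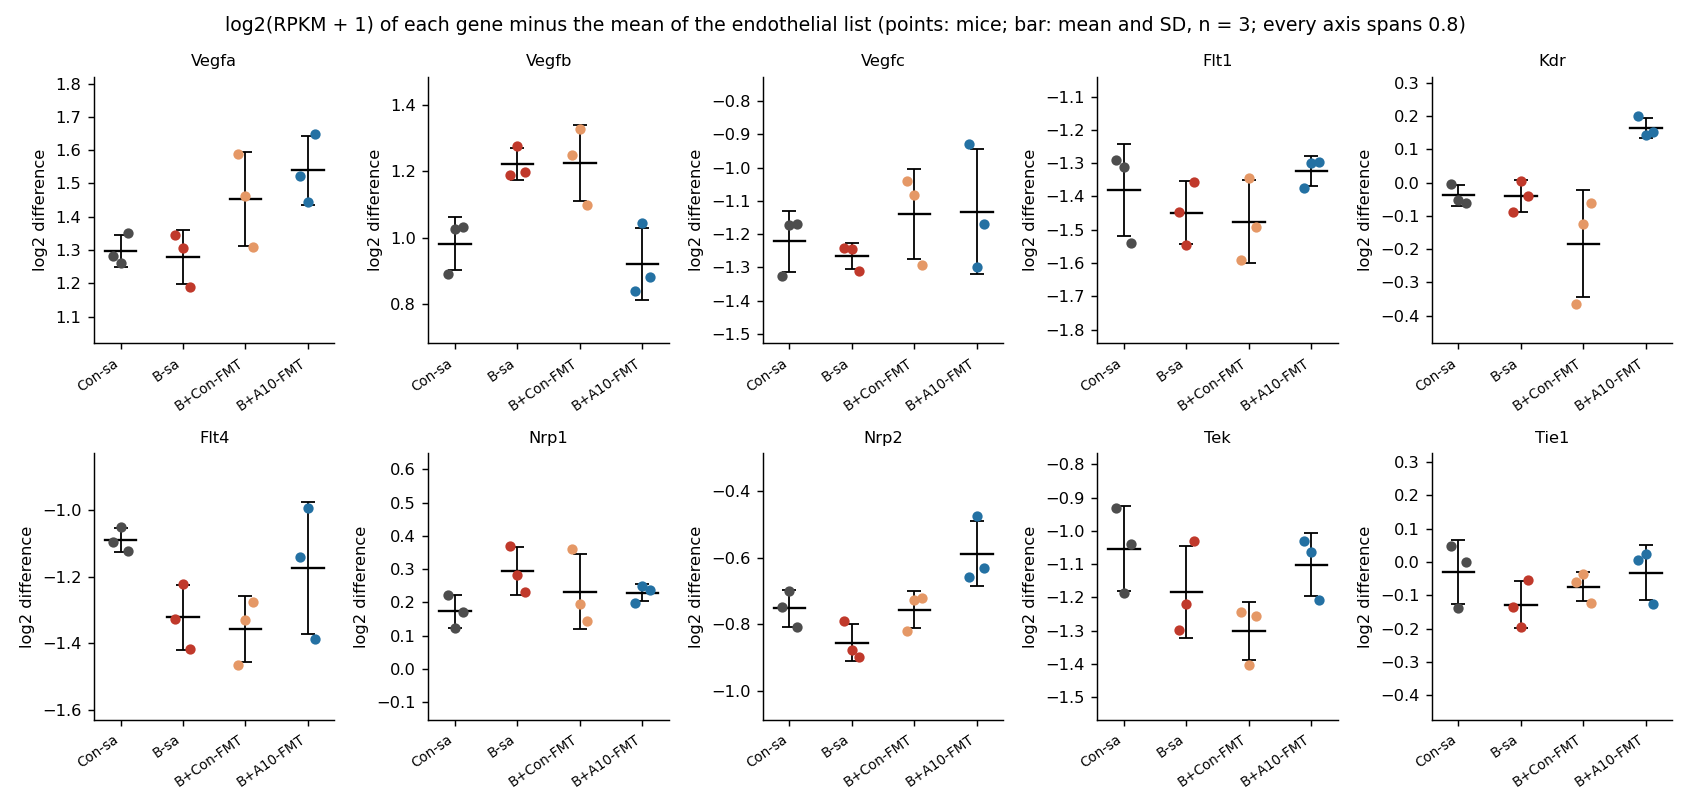
log2(RPKM + 1) of each of the 10 genes minus the mean of the 21 endothelial markers in the same mouse (vertical axes), by group (horizontal axes), with the mean and SD (n = 3). Kdr lies at 0.14 to 0.20 in B+A10-FMT and at 0.01 or below in the other 9 mice.

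Markers of other spleen cells were counted in the same comparisons. Of all genes tested, 14.5% were called for B-sa and 8.87% for B+Con-FMT against Con-sa. For B+A10-FMT, 5.27% were called against B-sa and 10.4% against B+Con-FMT. Of 12 red pulp macrophage genes, 5 were higher with A10-FMT relative to B-sa and 7 relative to B+Con-FMT, with 0 lower, and they summed to 1190 to 1446 RPKM for B+A10-FMT, 833 to 1071 for B+Con-FMT, 941 to 1151 for B-sa and 1075 to 1118 for Con-sa. For B-sa against Con-sa, none of these macrophage genes passed the test, and the lowest adjusted p was 0.177 (Adgre1). Of 6 genes of sinus endothelium, 4 were higher with A10-FMT than with Con-FMT, and 3 were lower for B-sa against Con-sa. Of 6 lymphatic markers, 1, Prox1, was higher with A10-FMT relative to B-sa and to B+Con-FMT. It was below the 1 RPKM of the filter in all B-sa and B+Con-FMT mice. The other 5 had estimates below 0 relative to B-sa, and the median log2 difference of the list was -0.06 there and -0.08 relative to B+Con-FMT. In B-sa against Con-sa, where Flt4 and Tie1 were lower, 5 of 8 B cell genes were lower and 0 higher. Of 9 erythroid genes, 4 were higher there and 2 lower, the beta-globin genes Hbb-bs and Hbb-bt. Hbb-bs was at 25330.5, 45902 and 20289.5 RPKM for Con-sa and at 30.5, 17.3 and 9.20 for B-sa. It was at 36.4, 20929.6 and 4024.5 RPKM for B+Con-FMT and at 8916, 13234 and 10623 for B+A10-FMT. The cause of these differences in Hbb-bs was not tested. Relative to B-sa, B+A10-FMT had 2 erythroid genes higher and 1 lower. The B cell genes summed to 2071 to 2286 RPKM for Con-sa, 1580 to 1905 for B-sa, 1819 to 1907 for B+Con-FMT and 1838 to 1940 for B+A10-FMT. Of 8 dendritic cell genes, 2 were lower for B-sa and 2 for B+Con-FMT relative to Con-sa, and 2 were higher with A10-FMT than with Con-FMT. Among them, Siglech of plasmacytoid dendritic cells averaged 16.1 RPKM for Con-sa, 9.09 for B-sa, 5.89 for B+Con-FMT and 11.99 for B+A10-FMT. The dendritic list summed to 148 to 152, 114 to 144, 117 to 126 and 132 to 161 RPKM for these groups. The 10 monocyte and neutrophil genes had a median log2 difference of 1.08 for B-sa against Con-sa, where 1 was called higher. All 6 megakaryocyte genes had estimates above 0 there, with a median of 0.43 and 1 called higher. Their estimates were also all above 0 for B+Con-FMT and B+A10-FMT against Con-sa, with 0 called. All 8 T cell genes had estimates above 0 for B+Con-FMT against Con-sa, with 2 called, and against B-sa, with 1 called. All 8 had estimates below 0 for B+A10-FMT against B+Con-FMT, with none called (lowest adjusted p = 0.134, Cd3g). Of 10 stromal and mural genes tested, 1 was lower for B-sa and 2 for B+Con-FMT relative to Con-sa, and with A10-FMT 1 was higher than with Con-FMT and 1 lower than in B-sa. Kit, on the list of blood-forming progenitors, was called in the same direction as Tek, which that list also holds, in B+Con-FMT against Con-sa and in B+A10-FMT against B+Con-FMT. The part of these cell types in the levels of the 10 genes was not tested.

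Among the other VEGF family ligands and the angiopoietins, Angpt2 was the gene called. Vegfd, a ligand of Flt4, averaged 2.96 RPKM for Con-sa, 2.91 for B-sa, 2.54 for B+Con-FMT and 2.18 for B+A10-FMT and was called in no comparison. Pgf, a ligand of Flt1, averaged 0.320 to 0.450 RPKM by group and did not meet the filter. Angpt1, the activating ligand of Tek, averaged 4.95 to 6.50 RPKM by group and was called in no comparison. Angpt2, a ligand of Tek that endothelial cells store, was lowest with busulfan and saline. Its level was 2.59, 2.58 and 3.03 RPKM for the Con-sa mice, 1.93, 1.47 and 2.12 RPKM for B-sa, 1.71, 2.21 and 2.52 RPKM for B+Con-FMT and 3.13, 3.46 and 2.57 RPKM for B+A10-FMT. It was lower for B-sa against Con-sa (log2 -0.40, SE 0.12, adjusted p = 0.0472) and higher for B+A10-FMT against B-sa (log2 0.51, SE 0.12, adjusted p = 0.0347).

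Among the partners of the neuropilins, Sema3d and Sema3f were the class 3 semaphorins called. Of 6 tested, 2 were lower for B-sa and 2 for B+Con-FMT relative to Con-sa, and 2 were higher with A10-FMT than with Con-FMT, each time this pair. Relative to B-sa, only 1 was higher with A10-FMT. Sema3f, a ligand of Nrp2, averaged 9.34 RPKM for Con-sa, 6.50 for B-sa, 6.86 for B+Con-FMT and 8.61 for B+A10-FMT. Sema3d averaged 4.38, 2.80, 2.08 and 3.74 RPKM for these groups. Of 4 plexins tested, Plxnd1, an endothelial semaphorin receptor, was lower for B-sa against Con-sa (log2 -0.23, SE 0.06, adjusted p = 0.0220). Plxnd1 was higher with A10-FMT relative to B-sa (log2 0.37, SE 0.06, adjusted p = 0.00609) and to B+Con-FMT (log2 0.26, SE 0.06, adjusted p = 0.0164), and Plxna1 was also higher with A10-FMT than with Con-FMT (log2 0.34, SE 0.10, adjusted p = 0.0463).

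Of 20 regulators of the receptors, 4 were higher and 1 lower with A10-FMT than with Con-FMT, and 4 were higher and 0 lower relative to B-sa. Of all genes tested, 10.4% and 5.27% were called in these comparisons. The higher ones were Ptprb, a phosphatase that acts on Tek and VE-cadherin, Cdh5, which is VE-cadherin, Ccbe1, which is needed to process VEGF-C, and Svep1, a matrix protein of lymphatic vessel growth, in both comparisons. Ptprb and Cdh5 are also among the endothelial markers. Ccbe1 was at 1.54, 1.75 and 2.19 RPKM for Con-sa, 1.10, 1.27 and 1.45 for B-sa, 0.940, 0.940 and 1.20 for B+Con-FMT and 2.01, 2.58 and 2.37 for B+A10-FMT (log2 0.71, SE 0.11, adjusted p = 0.00407 for the last pair). Ptprb was at 6.35, 5.88 and 5.90 RPKM for Con-sa, 3.91, 3.76 and 4.19 for B-sa, 3.53, 3.28 and 4.28 for B+Con-FMT and 5.63, 5.68 and 6.03 for B+A10-FMT (log2 0.53, SE 0.08, adjusted p = 0.00400 for the last pair). For Ptprb, the 6 mice of B-sa and B+Con-FMT lay below the other 6. The gene called lower was Dok2, an adaptor that blood cells also make. Relative to Con-sa, 4 regulators were lower and 1 higher for B-sa, led by Ptprb (log2 -0.51) and Spry2 (log2 -0.39), an inhibitor of receptor signaling.

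**Figure D5:**
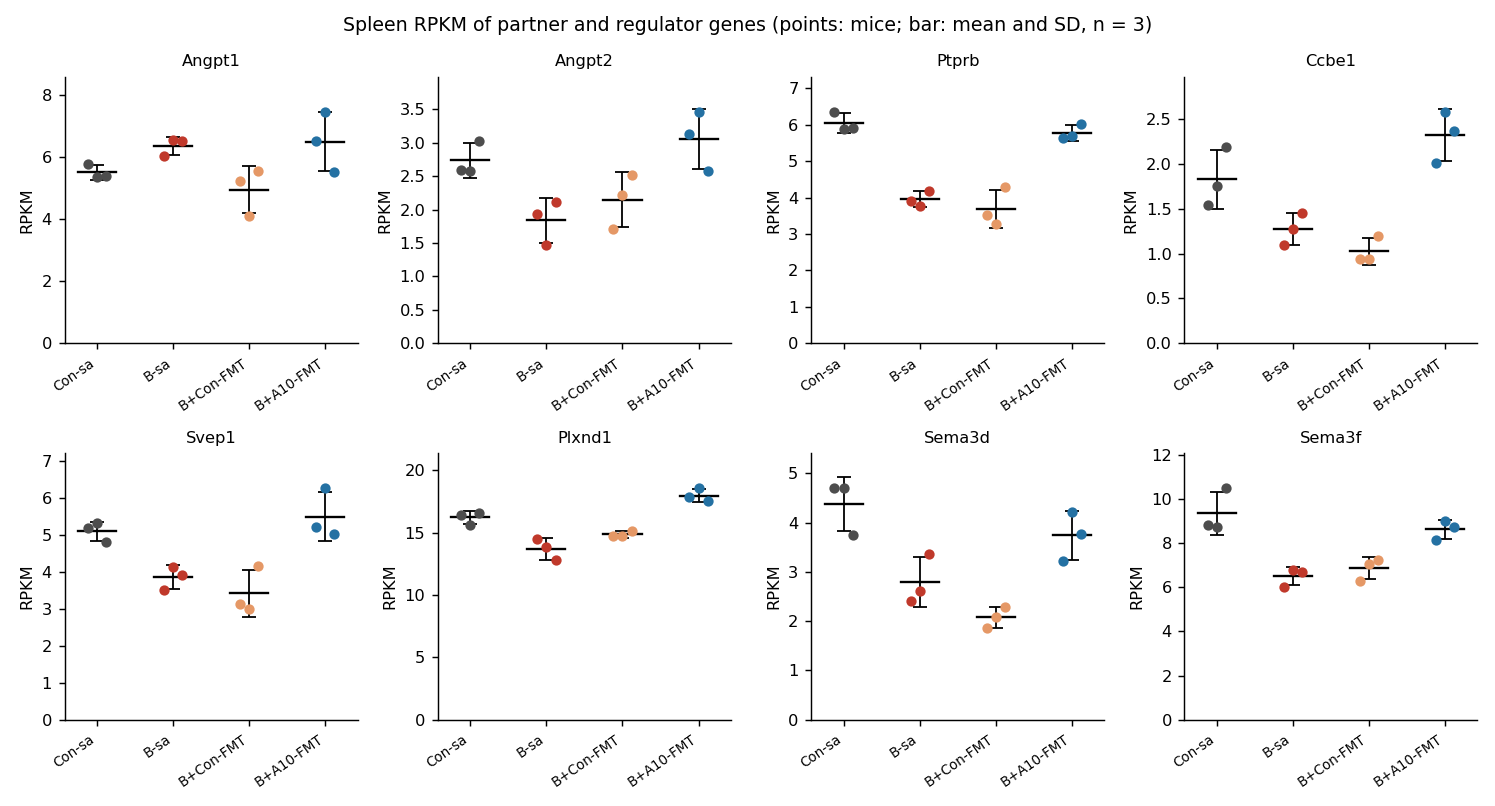
RPKM (vertical axes, starting at 0) of Angpt1, Angpt2, Ptprb, Ccbe1, Svep1, Plxnd1, Sema3d and Sema3f in each mouse by group (horizontal axes), with the mean and SD (n = 3). Ptprb and Ccbe1 were lower with Con-FMT than with A10-FMT without overlap, and Angpt1 overlapped between these groups.

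Of 40 genes that relay the signal inside the cell to kinases and the cytoskeleton, 2 were higher (Shc1 among them) and 2 lower (Hspb1 and Prkd2) with A10-FMT than with Con-FMT, where 10.4% of all genes tested were called. Plcg1, the phospholipase recruited by Kdr, was the relay gene called relative to B-sa, and it was higher with either FMT (log2 0.32 with Con-FMT and 0.31 with A10-FMT). It averaged 12.1 RPKM for Con-sa, 9.79 for B-sa, 12.5 for B+Con-FMT and 12.4 for B+A10-FMT. Of the 40 relay genes, 0 were higher and 6 lower for B-sa against Con-sa, among them Prkd2 (log2 -0.40) and Plcg1 (log2 -0.28). Of all genes tested, 14.5% were called there and 9.78% were called lower. The median log2 difference of the list was -0.06, beside -0.04 for all genes. Cdc42 and Rac1, the most abundant of the list and used by all cells, were called in no comparison. Of 11 genes that VEGF induces, 1, Vcam1, which is also on the macrophage list, was higher with A10-FMT than with Con-FMT, where 7.58% of all genes were called higher, and 1, Angpt2, relative to B-sa, where 4% were.

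Vegfa is a target of hypoxia-inducible factors, so 21 hypoxia genes were counted beside it. With A10-FMT, 2 were higher than with Con-FMT (Epas1 and Arnt, both subunits of the factors) and 3 lower (Ankrd37, P4ha1 and Ldha, all targets). Relative to B-sa, 2 were higher (Epas1 and P4ha1) and 0 lower. In B-sa against Con-sa, 0 were higher and 5 lower (Epas1, Slc2a1, Ankrd37, Ndrg1 and Kdm3a), with a median log2 difference of -0.09. Of all genes tested, 9.78% were called lower there, and 10.4% were called for B+A10-FMT against B+Con-FMT and 5.27% against B-sa. Epas1, which endothelium makes, was at 19.8, 19.1 and 21.3 RPKM for Con-sa, 17.5, 16.5 and 15.6 for B-sa, 16.7, 16.0 and 18.7 for B+Con-FMT and 22.2, 20.8 and 22 for B+A10-FMT (log2 0.32, SE 0.07, adjusted p = 0.0146 for the last pair). Ankrd37 went the other way, at a mean of 6.58 RPKM for Con-sa and 3.82 RPKM for B+A10-FMT (log2 -0.65, SE 0.12, adjusted p = 0.0322). The median log2 difference of the list for B+A10-FMT against B+Con-FMT was 0.05, beside 0.05 for all genes tested.

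Of 18 transcription factors of endothelium, 7 were higher and 0 lower with A10-FMT than with Con-FMT, 6 higher and 0 lower relative to B-sa, and 0 higher and 6 lower for B-sa against Con-sa. Of all genes tested, 7.58% and 4% were called higher and 9.78% were called lower in these comparisons. Ets1, Ets2, Elk3, Hhex and Prox1 were higher with A10-FMT in both comparisons. Prox1, the lymphatic regulator and the lymphatic marker that was called, averaged 1.27 RPKM for Con-sa, 1.47 for B+A10-FMT, 0.870 for B+Con-FMT and 0.890 for B-sa. Every B-sa and B+Con-FMT mouse was below 1 RPKM, so Prox1 met the filter only through the groups where it was higher. Ets1, which lymphocytes also make, averaged 97.4 RPKM for Con-sa, 76.1 for B-sa, 78.3 for B+Con-FMT and 93.1 for B+A10-FMT. Klf2, induced by flow, was lower for B-sa against Con-sa (log2 -0.47, SE 0.10, adjusted p = 0.0119). Klf2 averaged 104 RPKM for Con-sa, 75.2 for B-sa, 93.8 for B+Con-FMT and 85.5 for B+A10-FMT, and no other comparison of it was called.

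Levels of the 10 genes were compared with each other over the 12 mice as a description, since mice share group and library preparation. Among 21 pairs of receptors and co-receptors, Pearson's r of log2(RPKM + 1) was 0.58 to 0.91, and -0.18 to 0.80 with group means removed. Among 21 pairs of a ligand and a receptor it was -0.42 to 0.77, and -0.54 to 0.64 with group means removed. Tek and its partner Tie1 had the highest r, at 0.91 (0.80 with group means removed). Over the same mice, the 3 tested genes most like Kdr, each with r and then r with group means removed, were Fermt2 (r = 0.96, 0.89), App (r = 0.96, 0.81), Angptl2 (r = 0.96, 0.95). For Tek they were Arhgap29 (r = 0.97, 0.94), Pcgf3 (r = 0.94, 0.81), Ddi2 (r = 0.93, 0.72), and for Tie1 Ndst1 (r = 0.96, 0.91), Frs2 (r = 0.95, 0.90), Abcc9 (r = 0.95, 0.79). For Vegfa they were Erbb2 (r = 0.95, 0.77), Pacs1 (r = 0.92, 0.60), Klhl29 (r = 0.91, 0.64). For Flt1 they were Snrnp200, Tmem131 and Stk24 (r = 0.97 to 0.98), for Flt4 Gab2, Col4a2 and Smarcc2 (r = 0.94 to 0.94), for Nrp1 Pcdhgc3, Glb1l and Abcc1 (r = 0.91 to 0.96) and for Nrp2 Tifab, Coch and Ece1 (r = 0.97 to 0.98). For Vegfb they were B230217C12Rik, Insl6 and Gtf3c6 (r = 0.83 to 0.87) and for Vegfc Ddr1, Tex2 and Fzd8 (r = 0.88 to 0.90).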

How the data were processed

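The authors sequenced oligo(dT)-enriched RNA of each spleen and deposited values for 60654 transcripts per mouse, read here as RPKM from the study's methods because the file headers name no unit. They could be the related FPKM, in which case the estimated reads would be fragments. Their methods name SOAPaligner, and the submitters' processing notes name HISAT, Bowtie2 and mm10. No counts were used, and the DEGseq test of the study and other count tests were therefore not run. Precision rests on the spread between 3 mice, and the sources do not say whether they shared cages. Depth was estimated from the smallest steps between values.

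Here RPKM was summed over the transcripts of a gene, and groups were taken from the sample labels. Genes with RPKM of 1 or more in 3 or more samples entered limma (version 3.58.1, R version 4.3.3, trended and robust empirical Bayes) as log2(RPKM + 1), with 4 groups together and no covariate. Two-sided p was adjusted over all genes tested (Benjamini-Hochberg), separately for the 6 comparisons. Scripts were tested on simulated data, and tables were made with pandas 2.3.3 under Python 3.11.15.

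The 10 genes and all lists were chosen with earlier results of these data known. The naming rule took the 10 genes, up to 4 called genes of largest change and the 2 of highest RPKM per pathway list, and the 3 genes of highest r per gene. A few further list genes were named after their values were seen, and 1 called gene of the relay list is not reported here. Alternatives were a pseudocount of 0.1, no filter or one on a mean of 0.5, a replicate block, fits of the compared groups alone, scaling by median of ratios or to equal non-globin totals, the leading transcript, removal of length and GC trends, and leaving out each mouse. Counting identical transcripts once was added after seeing the data.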

Additional observations from a re-analysis of the deposited data

How the results depend on the processing

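The counts of called genes moved with the processing more than the directions did. Among the 10 genes, the calls for B-sa against Con-sa were 2 in the main analysis, 0 without the filter, with the replicate block, with median-of-ratios scaling, with the leading transcript only and with the length and GC trend removed, and 1 with only the groups compared or with equal non-globin totals. For B+A10-FMT against B-sa the 3 calls became 0 with the leading transcript only and 1 (Vegfa) with the length and GC trend removed. They became 2, without Kdr, with no filter, with the replicate block and with median-of-ratios scaling. With only the groups compared they became 2, without Nrp2. For B+A10-FMT against B+Con-FMT the 7 calls became 4 with the replicate block, 4 with only the groups compared, 1 with the leading transcript only (Kdr) and 2 with the trend removed (Vegfa and Kdr). In B+Con-FMT against Con-sa the 3 calls became 5 with equal non-globin totals, 0 with the leading transcript only and 1 with the trend removed. The cause was not tested. Kdr, Flt4, Tie1 and Vegfc have 1 listed transcript, so that their log2 fold changes are the same with the leading transcript only. Their SE and p draw on the spread of all genes tested and can move.

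Over all genes, the 1838 calls in B-sa against Con-sa became 972 with only the groups compared and 547 with the leading transcript only. In B+Con-FMT against B-sa the 107 calls became 71 without the filter, 32 with only the groups compared, 180 with equal totals and 23 with the leading transcript. For B+A10-FMT against B-sa the 668 calls became 417 with the replicate block, 158 with only the groups compared, 111 with the leading transcript and 311 with the trend removed. For B+A10-FMT against B+Con-FMT the 1312 calls became 2338 with equal totals and 315 with the leading transcript. For B+A10-FMT against Con-sa the 52 calls became 1 with the leading transcript, and in B+Con-FMT against Con-sa the 1124 calls became 1837 and 258 with equal totals and the leading transcript.

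The alternatives were run for 22 log2 fold changes of 7 of the 10 genes, and not for those of partner and list genes. Among the 22, those of Vegfa changed sign: with the leading transcript only to 0.18 in B-sa and 0.37 in B+Con-FMT, both against Con-sa, and to -0.053 in B+A10-FMT against B+Con-FMT, and with identical transcripts counted once to 0.0711 in B+Con-FMT against Con-sa. The receptor minus ligand difference was -0.0406 for B-sa against Con-sa and -0.0022 for B+A10-FMT against B-sa with the trend removed, and 0.22 in B+A10-FMT against B-sa and 0.37 in B+A10-FMT against B+Con-FMT with the leading transcript only.

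Leaving out 1 mouse at a time, the 10 genes had 0 to 3 calls in B-sa against Con-sa, 0 in B+Con-FMT against B-sa, 1 to 3 in B+A10-FMT against B-sa, 1 to 8 against B+Con-FMT, 0 against Con-sa and 0 to 3 in B+Con-FMT against Con-sa. All genes had 510 to 2100, 19 to 468, 106 to 833, 222 to 1559, 1 to 75 and 337 to 1308 calls in the same order. The receptor minus ligand difference ranged from -0.17 to -0.07 in B-sa against Con-sa, from -0.21 to -0.07 in B+Con-FMT against B-sa, from 0.04 to 0.13 in B+A10-FMT against B-sa and from 0.16 to 0.31 in B+A10-FMT against B+Con-FMT.

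The replicate numbers come from the sample titles, and the deviations of same-numbered mice from their group means correlated at -0.37 to 0.30, so that the numbers do not pair the mice and the block is given only here. Tests on counts were not run, since the values were read as RPKM, and the median-of-ratios scaling was applied to those values. Depth limits Vegfc and Tek most.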
